A study of Mus musculus with 28 samples.

Results

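The 8 genes described here are the inhibitors of cell cycle kinases Cdkn2a, Cdkn2b, Cdkn2c, Cdkn1a and Cdkn1b and the p53 pathway genes Trp53, Mdm2 and Ccng1. Cdk inhibitors and p53 are known as a barrier to reprogramming, which Mdm2 counters by restraining p53. They were taken by gene symbol from a table of 37620 genes, and all 8 were among the 16932 genes with enough counts to test. The study sequenced poly(A) RNA of mouse cells to ask how a K36M histone H3, in which methionine replaces a lysine of the tail that is otherwise methylated, bears on cell identity when Oct4, Klf4, Sox2 and Myc (OKSM) reprogram cells. The 14 groups, with 2 libraries each, were WT and K36M mouse embryonic fibroblasts (MEFs) at d0, reprogramming cells at d2, d4, d6 and d8, induced pluripotent stem cells (iPSCs), and MEFs labelled noOKSM. The names of the WT libraries carry H3_3. The promoter behind the histone, the number of clones or embryos, and the day of the noOKSM cells are not stated in the labels. The labels give DMEM with serum for MEFs in general, without naming noOKSM, AGi for reprogramming cells and S/L for iPSCs, so a change from d0 to a later stage cannot be told apart from a change of medium.

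The proteins of these genes act along connected routes. The Ink4 proteins made by Cdkn2a, Cdkn2b and Cdkn2c block Cdk4 and Cdk6, which otherwise phosphorylate the Rb protein and let the cell enter S phase. A second product of Cdkn2a, Arf, holds back Mdm2, the ubiquitin ligase that marks p53 for destruction. The p53 protein, the product of Trp53, switches on Cdkn1a, Mdm2 and Ccng1 among many targets, and Mdm2 thereby closes a feedback loop on p53. Fibroblasts raise Ink4 and Arf products as they age in culture, while pluripotent cells keep the locus silent.

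Libraries held 17507521 to 35622279 gene counts, and levels are given as counts per 1000000 (CPM) of a library scaled by TMM, edgeR's library scaling. Replicates differed by more than counting noise in all 14 groups, most of all in K36M at d6, where the median gene differed by 0.325 on the log2 scale, against 0.0474 to 0.162 in the other groups. No label states if the 2 libraries of a group are separate cultures, and the p-values below then cover only spread between libraries, which could be technical. This spread was estimated for each gene over all groups of a fit. The wide spread of K36M at d6 is therefore not reflected in the p-values at d6, which may be too small. Ccng1, for instance, had an SE of 0.156 between genotypes at d6, with K36M libraries at 313 and 572 CPM, and 0.153 at d4. Summed over 8 fibroblast markers, d0 libraries held 21000 to 25600 CPM in WT and 28400 to 28600 in K36M, in keeping with their label, and the sum stood at 105 to 122 CPM in K36M at d8 against 1730 to 1850 in WT. Zfp42 and Lin28a, markers of pluripotent cells, were at 0 in WT at d0, and Zfp42 and Esrrb in K36M. Summed over 8 such markers, K36M held 303 to 310 CPM at d4 and 1510 to 1530 at d8, against 4.24 to 4.92 and 271 to 276 in WT. In such bulk RNA, fewer cells of a type and less RNA per cell cannot be told apart.

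The DNA next to 3 of the 8 genes holds a close match to the p53 response element. These stretches are shown as a description of the sequence, and their part in the RNA levels was not tested. The element was searched by its consensus on both strands within 3000 bases of annotated transcript starts in mm9. No bases were allowed between its arms, and 1 mismatch was allowed outside the invariant C and G of each arm, which are in capitals. Each is read 5′ to 3′ on the strand of its gene.
Cdkn1a, chr17:29227873-29227892, + strand, 42 bases upstream of the nearest start: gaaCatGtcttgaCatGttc
Ccng1, chr11:40568964-40568983, - strand, 160 bases upstream: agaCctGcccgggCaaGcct
Ccng1, chr11:40568438-40568457, - strand, 366 bases downstream: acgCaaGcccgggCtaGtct
Cdkn2b, chr4:88954309-88954328, - strand, 2623 bases downstream: agaCatGtccggtCttGctc
Such a match lay near 344 of 22380 protein-coding genes (1.54%). A match describes the letters only, and the other 5 members have none within this window and limit.

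Cdkn2a and Cdkn2b are neighbours on mouse chromosome 4, 11640 bases apart, and their start regions are shown because the counts merge transcripts from different starts of Cdkn2a. The 100 bases before each start come from RefSeq on GRCm38.p6, all on the minus strand, with the GC box GGGCGG, or CCGCCC on the other strand, in capitals.
Cdkn2a, upstream start (chr4:89294620-89294719): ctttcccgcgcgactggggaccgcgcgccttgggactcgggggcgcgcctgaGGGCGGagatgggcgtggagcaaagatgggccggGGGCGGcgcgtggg
Cdkn2a, downstream start (chr4:89282193-89282292): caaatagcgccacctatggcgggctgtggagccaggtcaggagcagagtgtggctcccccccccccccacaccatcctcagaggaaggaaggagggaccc
Cdkn2b (chr4:89311033-89311132): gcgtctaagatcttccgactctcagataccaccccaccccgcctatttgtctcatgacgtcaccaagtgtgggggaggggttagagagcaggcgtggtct
The upstream Cdkn2a start, which begins the Arf transcript, holds 2 GC boxes, and the downstream start, which begins the Ink4a transcript, holds none, as does Cdkn2b. Over all 8 members 5 of 11 starts hold a GC box, beside 8109 of 32851 RefSeq starts (24.7%). Because 1 gene count covers all Cdkn2a transcripts, Ink4a and Arf cannot be told apart in the values below.

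**Figure D1:**
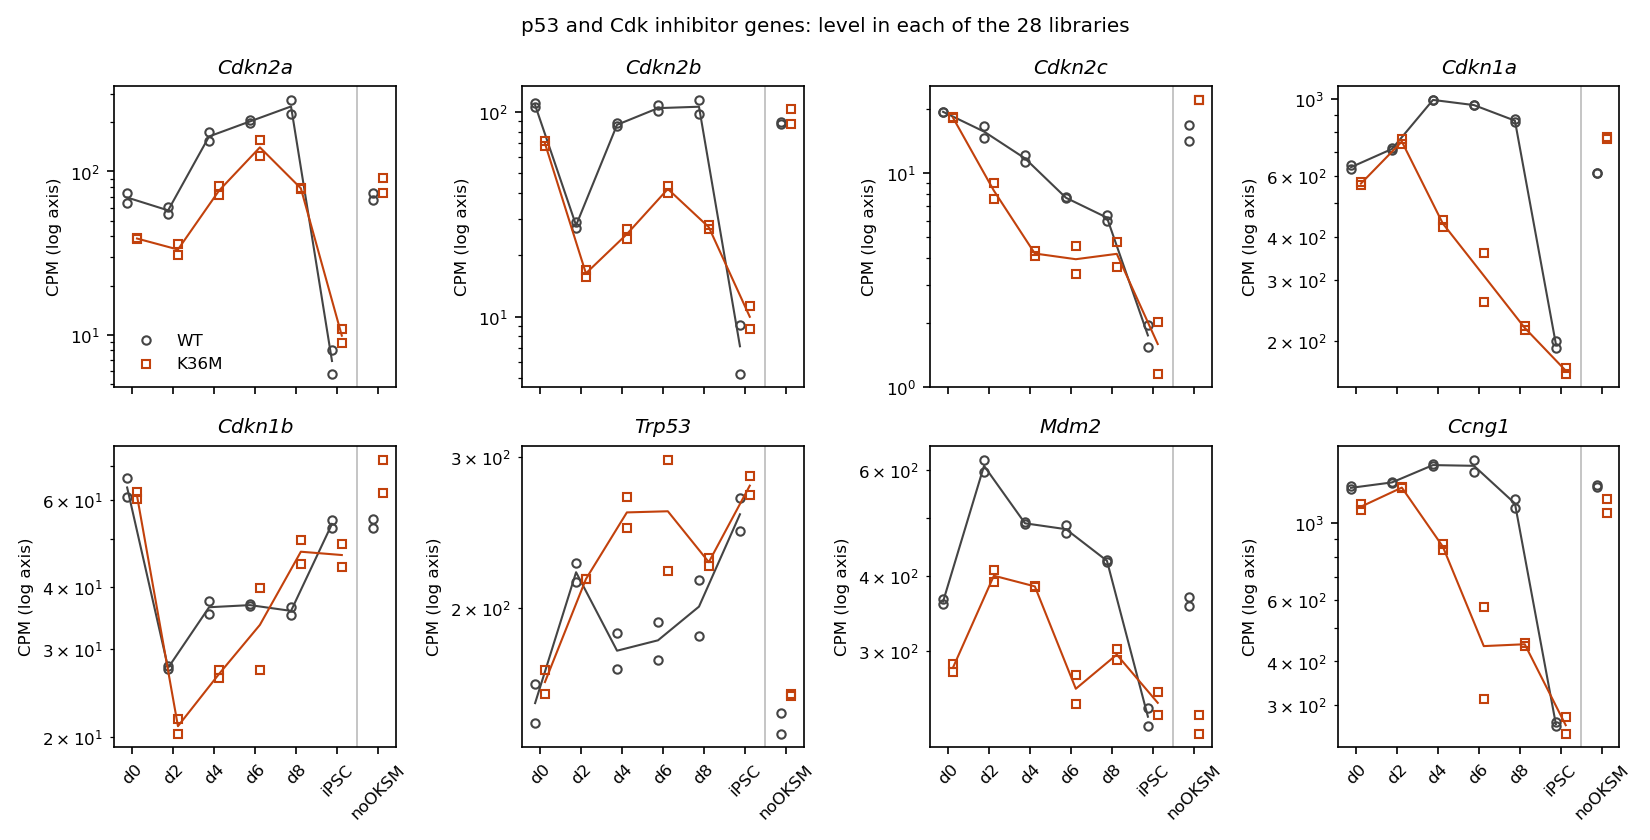
Level of each of the 8 genes in each of the 28 libraries, in CPM on a log axis, by stage (circles WT, squares K36M; lines join the mean of the 2 libraries from d0 to iPSC, and noOKSM stands apart on the right). Cdkn2a, Cdkn2b, Cdkn1a and Ccng1 of K36M run below WT at d4, d6 and d8, while in iPSCs Cdkn2a is above WT, Cdkn1a below it, and Cdkn2b and Ccng1 overlap with it.

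At d0 the genes differed widely in level. Per kilobase of exon, the WT means were 359 CPM for Ccng1, 286 for Cdkn1a, 77.3 for Cdkn2b, 71.6 for Mdm2, 59.2 for Cdkn2a, 38.3 for Trp53, 13.9 for Cdkn1b and 7.2 for Cdkn2c.

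Cdkn2a (chr4:88920377-88940557 of mm9, minus strand) rose from d2 to d4 in both genotypes and was low in iPSCs. WT libraries read 74.1 and 64.4 CPM at d0, 55.3 and 60.3 at d2, 175 and 153 at d4, 199 and 207 at d6, 275 and 225 at d8, 5.76 and 8.03 in iPSCs and 67.1 and 73.3 in noOKSM. K36M libraries, in the same order, read 38.9 and 38.8, 35.8 and 30.7, 71.5 and 80.9, 156 and 125, 78.6 and 79.2, 8.87 and 10.8 and 73.4 and 91.8 CPM. The WT and K36M libraries did not overlap at any stage: K36M was below WT from d0 to d8 and above it in iPSCs and noOKSM. In noOKSM they all but touched, with the nearest libraries at 73.35 CPM in WT and 73.36 in K36M. In WT the log2 fold change (± SE) against d0 was -0.26 ± 0.142 at d2, without passing the test, and 1.24 ± 0.141 at d4, 1.55 ± 0.142 at d6, 1.85 ± 0.143 at d8 and -3.32 ± 0.167 in iPSCs, all of which passed (edgeR adjusted p = 7.44e-08, 2.06e-09, 8.35e-11 and 1.62e-14). Of the steps in between, d4 against d2 rose by 1.5 ± 0.142 (edgeR adjusted p = 1.99e-08), while d6 against d4 and d8 against d6 did not pass. K36M was lower in the d0 MEFs, by -0.83 ± 0.144 (edgeR adjusted p = 0.000251). In the noOKSM MEFs the value was 0.23 ± 0.14 and did not pass (edgeR adjusted p = 0.207). On d2, d4, d6 and d8 in turn the genotype difference was -0.80 ± 0.145, -1.10 ± 0.141, -0.53 ± 0.138 and -1.67 ± 0.142 (edgeR adjusted p = 0.000268, 5.79e-07, 0.00172 and 7.83e-10). K36M levels also rose, against d0 by 0.97 ± 0.144 at d4, 1.86 ± 0.145 at d6 and 1.02 ± 0.144 at d8 (edgeR adjusted p = 2.58e-06, 6.35e-11 and 1.12e-06). From d6 to d8 they fell by -0.83 ± 0.14 (edgeR adjusted p = 6.01e-05). Set against the d0 difference, the shifts at d2, d4 and d6 did not pass, with 0.04 ± 0.204, -0.27 ± 0.2 and 0.31 ± 0.199 (edgeR adjusted p = 0.975, 0.329 and 0.203). At d8 the shift of -0.83 ± 0.2 passed (edgeR adjusted p = 0.00192).

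Cdkn2b (chr4:88952198-88956941, minus strand), whose Ink4b product is an arrest gene of TGF-beta signalling, fell at d2 and then returned in WT but not in K36M. WT libraries read 110.1 and 105 CPM at d0, 27.0 and 28.8 at d2, 87.8 and 84.8 at d4, 100.2 and 108 at d6, 114 and 97.0 at d8, 5.26 and 9.07 in iPSCs and 89.5 and 87.4 in noOKSM. K36M libraries read 71.8 and 68.2, 16.8 and 15.7, 23.9 and 26.7, 43.6 and 40.3, 28 and 26.6, 8.67 and 11.3 and 86.7 and 103 CPM. K36M lay below WT from d0 to d8, and the groups overlapped in iPSCs and noOKSM. The first 2 days brought -1.95 ± 0.144 in WT and -2.11 ± 0.151 in K36M (edgeR adjusted p = 6.04e-11 and 2.56e-11). From d2 to d4 the gene rose by 1.63 ± 0.143 (edgeR adjusted p = 6.78e-09) in WT and by 0.64 ± 0.153 (edgeR adjusted p = 0.00187) in K36M. At d6 and d8 WT differed from its d0 level by -0.05 ± 0.137 and -0.03 ± 0.136, which did not pass (edgeR adjusted p = 0.787 and 0.879), whereas K36M at d8 was still -1.36 ± 0.144 (edgeR adjusted p = 1.36e-08) from d0. From d0 to d8, in the order of the days, the K36M to WT log2 fold change was -0.62 ± 0.138, -0.78 ± 0.151, -1.77 ± 0.145, -1.31 ± 0.141 and -1.95 ± 0.145 (edgeR adjusted p = 0.00301, 0.000527, 5.37e-10, 2.45e-08 and 7.54e-11). At d8 this is a level 3.87 times lower in K36M. The difference grew against that of d0 by -1.15 ± 0.199 (edgeR adjusted p = 7.52e-05) at d4 and by -1.33 ± 0.198 (edgeR adjusted p = 9.5e-06) at d8.

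Cdkn2c (chr4:109333481-109339794, minus strand), which encodes the related inhibitor Ink4c, stood at like levels in both genotypes at d0 and fell further by d2 in K36M. WT libraries read 19.3 and 19.3 CPM at d0, 14.7 and 16.6 at d2, 11.3 and 12.1 at d4, 7.63 and 7.70 at d6, 6.39 and 5.99 at d8, 1.95 and 1.53 in iPSCs and 14.2 and 16.7 in noOKSM. K36M libraries read 18.3 and 18.1, 7.54 and 9.00, 4.33 and 4.08, 3.38 and 4.54, 3.64 and 4.74, 2.02 and 1.15 and 22.0 and 21.9 CPM. Both K36M d2 libraries were below both WT d4 libraries. At d0 the genotypes differed by -0.09 ± 0.142, an interval of -0.38 to 0.21 at 95% confidence, which did not pass (edgeR adjusted p = 0.745). K36M was lower by -0.92 ± 0.152 (edgeR adjusted p = 8.61e-05) at d2, -1.48 ± 0.167 (edgeR adjusted p = 9.17e-08) at d4, -0.95 ± 0.173 (edgeR adjusted p = 4.24e-05) at d6 and -0.56 ± 0.173 (edgeR adjusted p = 0.00791) at d8. The d8 call was lost without K36M d8 replicate 1, where the value was -0.38. Against d0 the gap had widened by -0.83 ± 0.208 at d2 and -1.39 ± 0.22 at d4 (edgeR adjusted p = 0.00984 and 2.6e-05), and the d2 value no longer passed without WT d2 replicate 2 (-0.74) or K36M d2 replicate 1 (-0.71). In iPSCs the gene was down to 23 to 39 counts per library.

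Cdkn1a (chr17:29227924-29237667, plus strand), the p53 target whose product p21 inhibits Cdk2, rose in WT and fell in K36M from d4. WT libraries read 644 and 626 CPM at d0, 722 and 711 at d2, 991 and 994 at d4, 959 and 958 at d6, 872 and 857 at d8, 192 and 200.4 in iPSCs and 612 and 612 in noOKSM. K36M libraries read 563 and 575, 764 and 741, 448 and 426, 359 and 258, 221 and 215, 168 and 161 and 766 and 778 CPM. K36M was slightly above WT at d2 and far below it from d4, and at d8 its libraries lay between the iPSC level and every WT library of d0 to d8. Against d0, WT rose by 0.64 ± 0.1 at d4, 0.60 ± 0.1 at d6 and 0.45 ± 0.1 at d8 (edgeR adjusted p = 7.34e-06, 2.04e-05 and 0.000472). K36M rose by 0.40 ± 0.1 at d2, and its values were -0.38 ± 0.1 at d4, -0.88 ± 0.101 at d6 and -1.38 ± 0.102 at d8, all below d0 (edgeR adjusted p = 0.00129, 0.00178, 4.07e-08 and 2.49e-11). Between genotypes, d0 and d2 did not pass, with -0.16 ± 0.1 and 0.07 ± 0.0999 (edgeR adjusted p = 0.319 and 0.717). K36M was lower by -1.18 ± 0.101 (edgeR adjusted p = 1.09e-09) at d4, -1.63 ± 0.103 (edgeR adjusted p = 2.87e-12) at d6 and -1.99 ± 0.104 (edgeR adjusted p = 1.79e-13) at d8, the last a level 3.96 times lower. Set against the d0 difference, these were shifts of -1.03 ± 0.142, -1.48 ± 0.142 and -1.83 ± 0.143 (edgeR adjusted p = 4.5e-06, 9.67e-09 and 4.46e-10).

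Cdkn1b (chr6:134870419-134875531, plus strand), which encodes the inhibitor p27, took another course from Cdkn1a. WT libraries read 66.2 and 60.8 CPM at d0, 27.7 and 27.4 at d2, 37.6 and 35.3 at d4, 36.9 and 36.7 at d6, 35.1 and 36.5 at d8, 54.7 and 52.6 in iPSCs and 54.8 and 52.6 in noOKSM. K36M libraries read 62.2 and 60.1, 21.7 and 20.3, 27.2 and 26.2, 27.3 and 39.9, 49.7 and 44.6, 44.0 and 48.9 and 72.3 and 62.0 CPM. The K36M d6 libraries lie on either side of WT, and K36M is below WT at d2 and d4 and above it at d8. From d0 to d2 the gene fell in both genotypes, -1.21 ± 0.122 (edgeR adjusted p = 1.13e-08) in WT and -1.54 ± 0.125 (edgeR adjusted p = 2.29e-10) in K36M. K36M was lower by -0.39 ± 0.126 (edgeR adjusted p = 0.0305) at d2 and -0.45 ± 0.123 (edgeR adjusted p = 0.00394) at d4, and higher by 0.40 ± 0.12 (edgeR adjusted p = 0.00681) at d8. The d2 call did not hold without any 1 of its 4 libraries (values from -0.44 to -0.34), with DESeq2 or under 2 other scalings, and the d8 call was lost without K36M d8 replicate 1 (0.31). At d6 the value was -0.13 ± 0.122 (edgeR adjusted p = 0.344), and it was -0.44 without K36M d6 replicate 2, which then passed, and 0.12 without K36M d6 replicate 1.

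**Figure D2:**
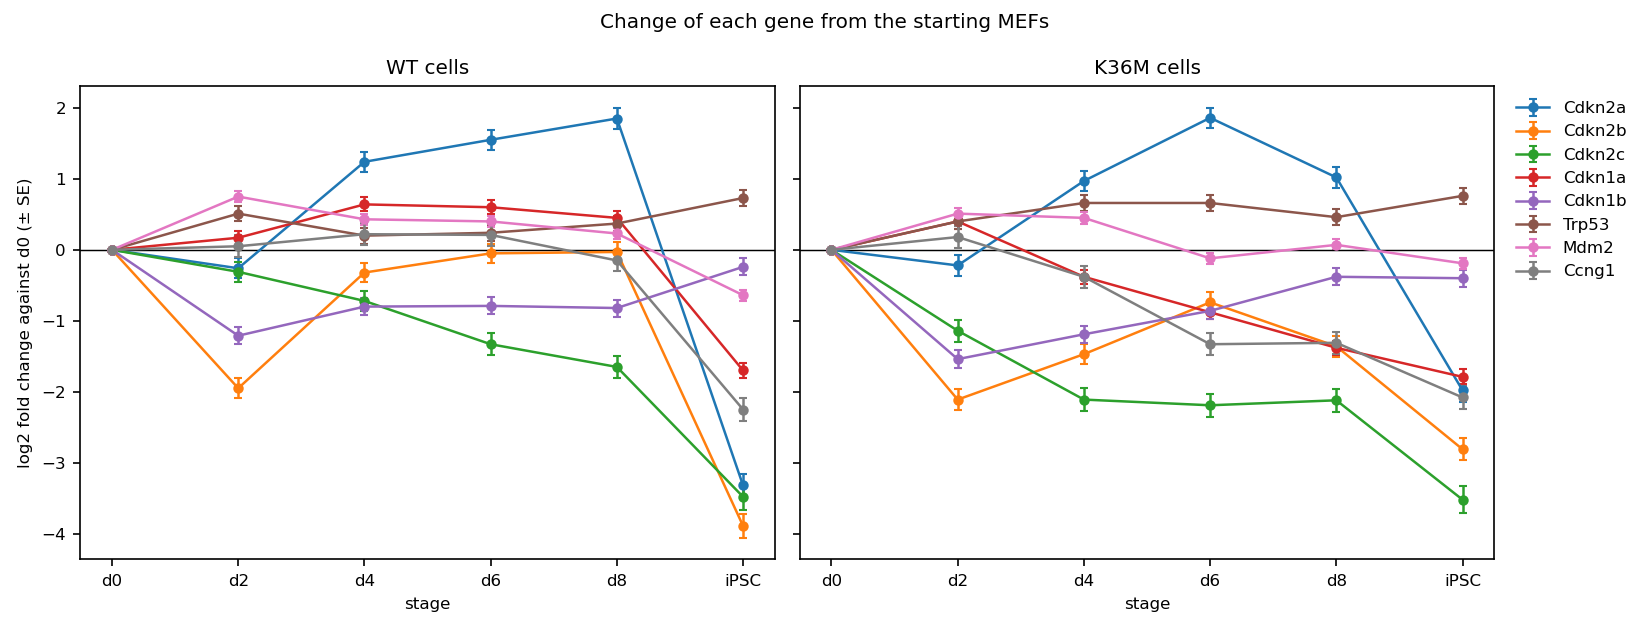
Log2 fold change (± SE, edgeR) of each gene from d0 of the same genotype, by stage, for WT on the left and K36M on the right. Cdkn1a and Ccng1 stay near or above 0 in WT through d8 and run below it in K36M from d4, and Cdkn2b returns to 0 in WT only.

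Every change of Trp53 itself (chr11:69393861-69405375, plus strand) against d0 that passed was upward. WT libraries read 163 and 147 CPM at d0, 226 and 214 at d2, 187 and 169.7 at d4, 193 and 174 at d6, 216 and 186 at d8, 268 and 246 in iPSCs and 151 and 143 in noOKSM. K36M libraries read 159 and 169, 216 and 216, 269 and 248, 298 and 221, 224 and 228, 285 and 271 and 159 and 158 CPM. K36M was above WT without overlap at d4, d6 and d8 and, by less, in iPSCs and noOKSM, and the groups overlapped at d0 and d2. In iPSCs the gene was above d0 by 0.73 ± 0.111 (edgeR adjusted p = 2.96e-06) in WT and 0.76 ± 0.111 (edgeR adjusted p = 1.71e-06) in K36M. K36M was higher than WT by 0.54 ± 0.111 (edgeR adjusted p = 0.00028) at d4 and 0.50 ± 0.111 (edgeR adjusted p = 0.000377) at d6, and the d8 value of 0.17 ± 0.11 did not pass (edgeR adjusted p = 0.185). The d6 value was 0.27 without K36M d6 replicate 1, and it did not pass in a fit of the 4 d6 libraries alone (edgeR adjusted p = 0.082, the highest over 11 alternatives). The RNA level says nothing of the p53 protein, which is set mainly by its stability.

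Mdm2 (chr10:117125944-117147814, minus strand), the target and inhibitor of p53, was lower in K36M in MEFs and on every day of reprogramming. WT libraries read 359 and 367 CPM at d0, 595 and 624 at d2, 488 and 491 at d4, 471 and 486 at d6, 426 and 422 at d8, 225 and 242 in iPSCs and 357 and 369 in noOKSM. K36M libraries read 286 and 277, 391 and 410.1, 385 and 384, 246 and 274, 302 and 290.1, 236 and 257 and 219 and 235 CPM. The groups overlapped in iPSCs alone. In WT the gene peaked at d2, 0.75 ± 0.0793 (edgeR adjusted p = 2.37e-08) above d0, and then fell by -0.32 ± 0.0788 (edgeR adjusted p = 0.0032) from d2 to d4. In the order of the days from d0 to d8, and last in noOKSM, the K36M to WT log2 fold change was -0.37 ± 0.0792, -0.61 ± 0.0791, -0.35 ± 0.079, -0.88 ± 0.0796, -0.52 ± 0.0792 and -0.68 ± 0.0794 (edgeR adjusted p = 0.00239, 4.6e-06, 0.00071, 1.44e-09, 6.16e-06 and 5.02e-07). Relative to d0, the difference had changed by -0.51 ± 0.112 (edgeR adjusted p = 0.000445) at d6, while the changes at d2, d4 and d8 did not pass.

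Ccng1 (chr11:40562054-40568813, minus strand), another direct p53 target, encodes cyclin G1. WT libraries read 1249 and 1272 CPM at d0, 1313 and 1300 at d2, 1456 and 1474 at d4, 1397 and 1519 at d6, 1104 and 1170 at d8, 260.4 and 268 in iPSCs and 1267 and 1282 in noOKSM. K36M libraries read 1135 and 1090, 1257 and 1268, 837 and 872, 313 and 572, 453 and 444, 248 and 277 and 1066 and 1171 CPM. WT libraries kept between 1104 and 1519 CPM from d0 to d8, and every K36M library from d4 on, noOKSM aside, was below that band. No change against d0 passed in WT up to d8, the values running from -0.15 to 0.22, and iPSCs were lower by -2.25 ± 0.16 (edgeR adjusted p = 8.67e-12). K36M was lower than WT by -0.78 ± 0.153 (edgeR adjusted p = 0.000161) at d4, -1.72 ± 0.156 (edgeR adjusted p = 1.59e-09) at d6 and -1.34 ± 0.155 (edgeR adjusted p = 1.05e-07) at d8. The 2 K36M d6 libraries stand apart, and the d6 value was -1.35 without replicate 1 and -2.22 without replicate 2. They also decide the step from d6 to d8 in K36M, 0.02 ± 0.153 with both (edgeR adjusted p = 0.941), -0.35 without replicate 1 and 0.52 without replicate 2, both of which passed in opposite directions. At d0 and d2 the genotype differences of -0.18 ± 0.152 and -0.05 ± 0.152 did not pass (edgeR adjusted p = 0.477 and 0.9).

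**Figure D3:**
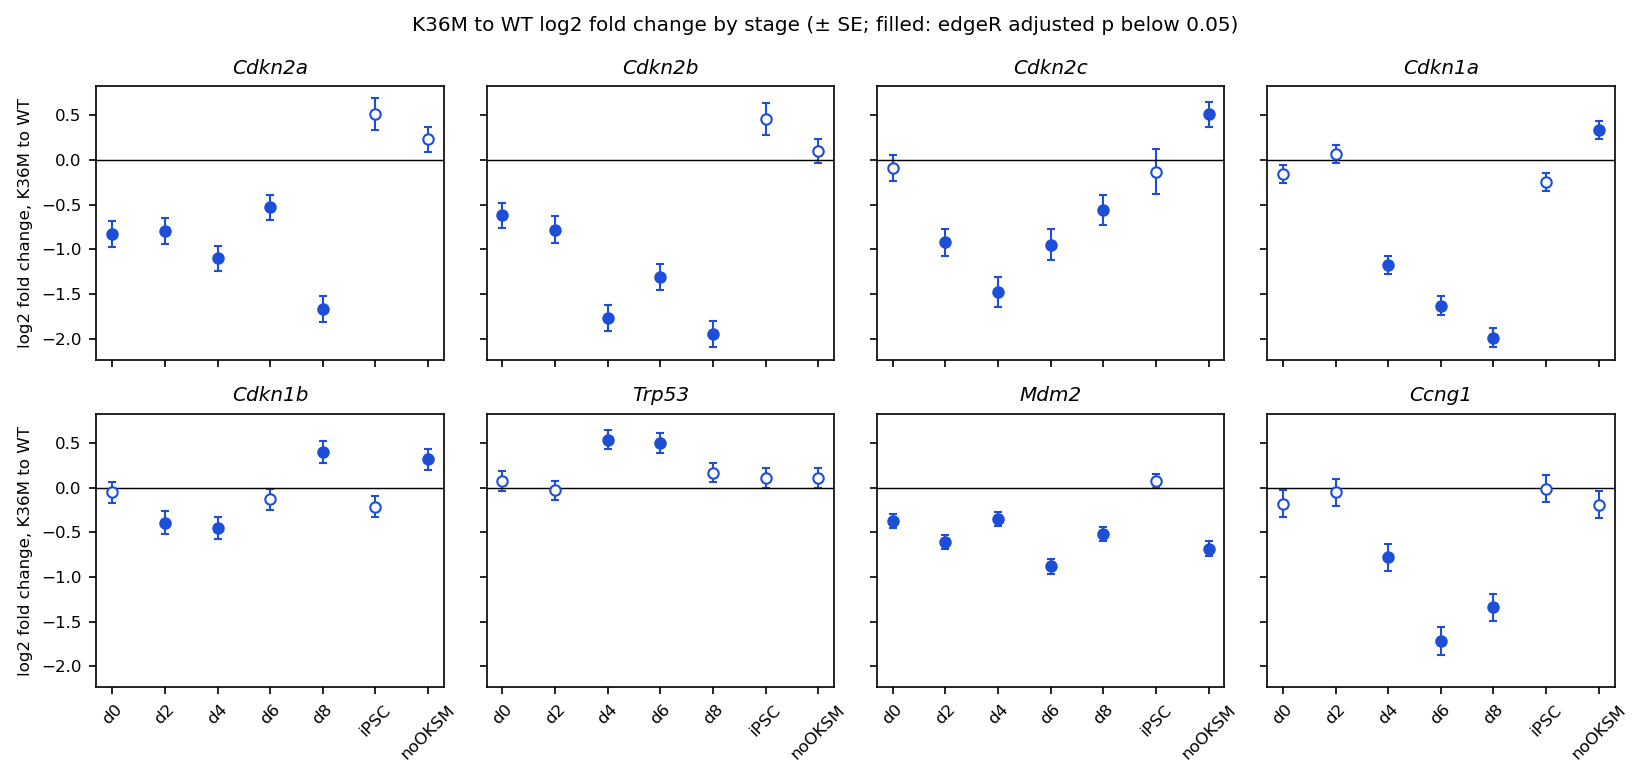
K36M to WT log2 fold change (± SE, edgeR) of each gene by stage, with filled points where the adjusted p is below 0.05. Cdkn2a, Cdkn2b and Mdm2 have filled points below 0 from d0 to d8 and Cdkn1a and Ccng1 from d4 to d8, and no point is filled in iPSCs.

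Across the 8 genes, K36M differed from WT at d0 in 3, all lower (Cdkn2a, Cdkn2b and Mdm2), beside 15.9% of all genes tested. At d2 it was 5, all lower (20.1% of all genes), at d4 all 8 with Trp53 the only one higher (52.9%), at d6 7 (70.9%) and at d8 7 (60.6%). The share of all genes that differed from d4 on was thus so large that the number of members called says little, and their direction is the plainer description: 7 were lower and 1 higher at d4, 6 and 1 at d6, and 6 and 1 at d8, with Trp53 the higher one at d4 and d6 and Cdkn1b at d8. Day by day from d0, the median log2 fold change of the members was -0.17, -0.50, -0.94, -0.91 and -0.95, beside 0.00, 0.00, 0.02, 0.08 and 0.04 over all genes. Libraries of the genotypes did not overlap on these days for 6, 7, 8, 7 and 8 members, beside 60.1%, 67%, 77%, 78.5% and 83.9% of all genes.

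A model with a term for each day was fitted to the 16 libraries of d2, d4, d6 and d8 and gave an average genotype difference over these days. It has no term for a difference that varies by day. Cdkn1a and Ccng1, for instance, did not pass at d2 (0.07 ± 0.0999 and -0.05 ± 0.152) and were lower in K36M from d4 to d8. K36M was lower in 6 members and higher in 1 (58.5% of 15954 genes differed), with a median of -0.99 beside 0.02 over all genes. The averages were -1.04 ± 0.136 for Cdkn2a, -1.47 ± 0.141 for Cdkn2b, -0.99 ± 0.132 for Cdkn2c, -1.21 ± 0.226 for Cdkn1a, -0.60 ± 0.0723 for Mdm2 and -0.99 ± 0.198 for Ccng1 (edgeR adjusted p = 2.04e-05, 1.32e-06, 2.38e-05, 0.00037, 9.7e-06 and 0.000626). Trp53 was higher by 0.28 ± 0.0909 (edgeR adjusted p = 0.0147), and Cdkn1b, at -0.15 ± 0.114, did not pass (edgeR adjusted p = 0.26). These 7 calls held under all 23 alternatives.

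Along the WT course 27 of 48 member tests against d0 passed (13 higher, 14 lower; 54% of all tests), and 40 of 48 in K36M (14 higher, 26 lower; 65.2%). By stage (d2, d4, d6, d8, iPSC and noOKSM), 4, 5, 5, 6, 7 and 0 members passed in WT, beside 57.8%, 57.4%, 59%, 64%, 77.5% and 8.2% of all genes. In K36M it was 6, 8, 7, 7, 8 and 4, beside 61.1%, 68.9%, 77.9%, 73.5%, 75.5% and 34.5%, so that in most of these comparisons a call was common among all genes. Between neighbouring stages it was 16 of 32 in WT (30.7% of all tests) and 23 of 32 in K36M (47.9%), where d4, d6, d8 and iPSC against the stage before gave 6, 6, 4 and 7 members beside 37.9%, 55.3%, 46.7% and 51.6% of all genes. The step from d0 to d2, in which 4 members changed in WT, among them Cdkn2b and Cdkn1b, is counted with the tests against d0 and not here. Of the later WT steps, 2 held most of the calls: d4 against d2, where 7 members changed beside 32.2% of all genes (Cdkn2c, Cdkn1b and Trp53 not in every fit that left out 1 library, with -0.47 to -0.32, 0.37 to 0.41 and -0.34 to -0.24 where they failed), and iPSC against d8, where all 8 changed beside 70%. From d4 to d6 only Cdkn2c passed in WT, lower by -0.61 ± 0.155 (edgeR adjusted p = 0.0198), beside 4.67% of all genes, and it did not pass when any 1 of the 4 libraries was left out (-0.68 to -0.56). From d6 to d8 edgeR called no member in WT (16.1% of all genes) and DESeq2 called 1, Mdm2, and unadjusted p was below 0.05 for Cdkn2a (0.0374), Mdm2 (0.0377) and Ccng1 (0.0276).

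In iPSCs neither edgeR nor DESeq2 called a member between WT and K36M (1.25% of all genes with edgeR). Cdkn2a and Cdkn2b had log2 fold changes of 0.51 ± 0.179 and 0.46 ± 0.175 toward K36M and Cdkn1a had -0.25 ± 0.101 (edgeR adjusted p = 0.216, 0.263 and 0.303), and these 3 were the members with an unadjusted p below 0.05 (0.00973, 0.0145 and 0.0197). The 95% intervals of the other 5 were -0.66 to 0.41 for Cdkn2c, -0.46 to 0.04 for Cdkn1b, -0.12 to 0.34 for Trp53, -0.09 to 0.24 for Mdm2 and -0.33 to 0.31 for Ccng1. With 1 library left out, the value of Cdkn2b ran from 0.14 (without WT iPSC replicate 1) to 0.93 (without WT iPSC replicate 2). Only the latter passed. Without the same libraries, Cdkn2a was at 0.30 and 0.78, and neither passed. The iPSC difference was above that at d0 for Cdkn2a by 1.34 ± 0.229 (edgeR adjusted p = 0.000614) and for Cdkn2b by 1.08 ± 0.222 (edgeR adjusted p = 0.00319), since K36M was below WT at d0 and not in iPSCs. Summed over the 8 fibroblast markers, iPSC libraries held 809 to 1280 CPM in WT and 1100 to 1320 in K36M, above the 105 to 122 of K36M at d8. The part of fibroblast RNA in the iPSC values was not tested.

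MEFs without OKSM gave another picture from d0. In WT, neither edgeR nor DESeq2 called a member between noOKSM and d0 (8.2% of all genes with edgeR), and unadjusted p was below 0.05 for Cdkn2c (0.0317) alone. In K36M 4 members passed (34.5% of all genes): Cdkn2a was higher by 1.09 ± 0.144 (edgeR adjusted p = 4.09e-06), Cdkn1a by 0.44 ± 0.1 (edgeR adjusted p = 0.00168) and Cdkn2b by 0.44 ± 0.138 (edgeR adjusted p = 0.0163), and Mdm2 was lower by -0.31 ± 0.0793 (edgeR adjusted p = 0.00427). The Cdkn2b call was lost without either K36M d0 library (0.48 and 0.40) and without K36M noOKSM replicate 2 (0.31). Between genotypes in noOKSM 4 members passed (35% of all genes, 18.2% higher and 16.7% lower): Mdm2 was lower, as at d0, and Cdkn2c, Cdkn1a and Cdkn1b were higher in K36M by 0.51 ± 0.139 (edgeR adjusted p = 0.00622), 0.34 ± 0.1 (edgeR adjusted p = 0.0116) and 0.32 ± 0.118 (edgeR adjusted p = 0.0378). Those 3 were lost without WT noOKSM replicate 1 (0.39, 0.33 and 0.35), Cdkn1a and Cdkn1b also without WT noOKSM replicate 2 (0.33 and 0.29), Cdkn1b without K36M noOKSM replicate 1 (0.20) and Cdkn1a without K36M noOKSM replicate 2 (0.32). The column names of the noOKSM libraries begin with another prefix than those of d0 to d8, and what the prefix stands for is not stated.

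Cells at d4 were also set against noOKSM of their own genotype, where 13 of 16 member tests passed (64.8% of all tests), 6 in WT and 7 in K36M, beside 59.9% and 69.6% of all genes. In WT, Cdkn2a, Cdkn1a, Mdm2 and Trp53 were higher at d4 by 1.22 ± 0.141, 0.70 ± 0.1, 0.43 ± 0.079 and 0.28 ± 0.111 (edgeR adjusted p = 7.88e-08, 2.3e-06, 5.44e-05 and 0.0336). Cdkn1b and Cdkn2c were lower in WT by -0.56 ± 0.12 and -0.39 ± 0.144 (edgeR adjusted p = 0.000298 and 0.0222), and Cdkn2b and Ccng1 did not pass. In K36M, Mdm2 and Trp53 were likewise higher at d4, by 0.76 ± 0.0795 and 0.71 ± 0.111 (edgeR adjusted p = 1.18e-08 and 5.82e-06). Cdkn2c, Cdkn2b, Cdkn1b, Cdkn1a and Ccng1 were lower in K36M by -2.38 ± 0.162, -1.91 ± 0.146, -1.33 ± 0.122, -0.82 ± 0.101 and -0.39 ± 0.152 (edgeR adjusted p = 6.29e-12, 4.78e-11, 1.41e-09, 1.46e-07 and 0.0275). Cdkn2a in K36M stood at -0.12 ± 0.14, which did not pass (edgeR adjusted p = 0.473). Mdm2, Trp53, Cdkn1b and Cdkn2c thus had the same sign in both genotypes, and Cdkn1a had opposite signs. The difference between the genotypes in this comparison was not tested. The labels give no day for noOKSM and name no medium for it, and its column names have another prefix than those of d4. OKSM, medium, day and prefix thus cannot be told apart in these values.

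Of 48 tests of the genotype difference at a later stage against that at d0, 25 passed (28.7% of all tests), and all 6 stages share the d0 libraries. At d2, d4, d6, d8, iPSC and noOKSM 1, 5, 6, 5, 3 and 5 members passed, beside 10.6%, 35%, 55.6%, 38.2%, 7.8% and 25.1% of all genes. By gene, Cdkn2b passed at 5 of the 6 stages, Cdkn2c and Cdkn1a at 4, Cdkn2a, Mdm2 and Ccng1 at 3, Trp53 at 2 and Cdkn1b at 1. For d2, d4, d6, d8, iPSC and noOKSM in turn the members' median shift was -0.13, -0.50, -0.60, -0.65, 0.10 and 0.43, beside 0.00, 0.03, 0.07, 0.03, 0.00 and 0.03 over all genes.

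Among other p53 targets, more were lower than higher in K36M at d0 and from d4 to d8. Of 28 listed targets outside the 8 genes, 1 was higher and 7 lower in K36M at d0 (7.6% and 8.31% of all genes), 3 and 2 at d2 (9.74% and 10.4%), 4 and 12 at d4 (27.1% and 25.8%), 6 and 18 at d6 (37.3% and 33.7%) and 3 and 16 at d8 (31.6% and 29%). Their median log2 fold change was -0.07, 0.11, -0.13, -0.47 and -0.31. In iPSCs 1 target was higher and 0 lower (1.25% of all genes differed), and in noOKSM 6 and 7 (18.2% and 16.7%). With upper quartile scaling, the counts were 7 higher and 9 lower at d4 and 7 and 4 in noOKSM. Fas, a death receptor, was lower in K36M at d0 (-0.43 ± 0.125, edgeR adjusted p = 0.0217), d4, d6 and d8. At d8 it had 29.3 ± 0.503 CPM in WT and 5.08 ± 0.27 in K36M (mean ± SD, n = 2), or -2.53 ± 0.122 as a log2 fold change (edgeR adjusted p = 4.45e-14). Sulf2, a heparan sulfate sulfatase, was lower by -1.70 ± 0.0989 at d6 and Ak1, an adenylate kinase, by -1.18 ± 0.106 at d8 (edgeR adjusted p = 7.7e-13 and 1.99e-09). Pmaip1, which encodes the apoptosis protein Noxa, changed sides: 132 ± 9.21 CPM in WT and 62.1 ± 2.23 in K36M at d0, and 81.3 ± 1.89 and 215 ± 10.3 at d4 (log2 fold changes -1.09 ± 0.134 and 1.40 ± 0.134, edgeR adjusted p = 3.67e-06 and 6.55e-09). Perp, a desmosomal membrane protein, also changed sides, with 0.99 ± 0.132 at d2 and -0.51 ± 0.131 at d8 (edgeR adjusted p = 6.3e-06 and 0.00194). Along WT reprogramming most of the list rose, with 17 higher and 2 lower at d8 against d0 (32.7% and 31.4% of all genes; median 0.59 beside 0.06).

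**Figure D4:**
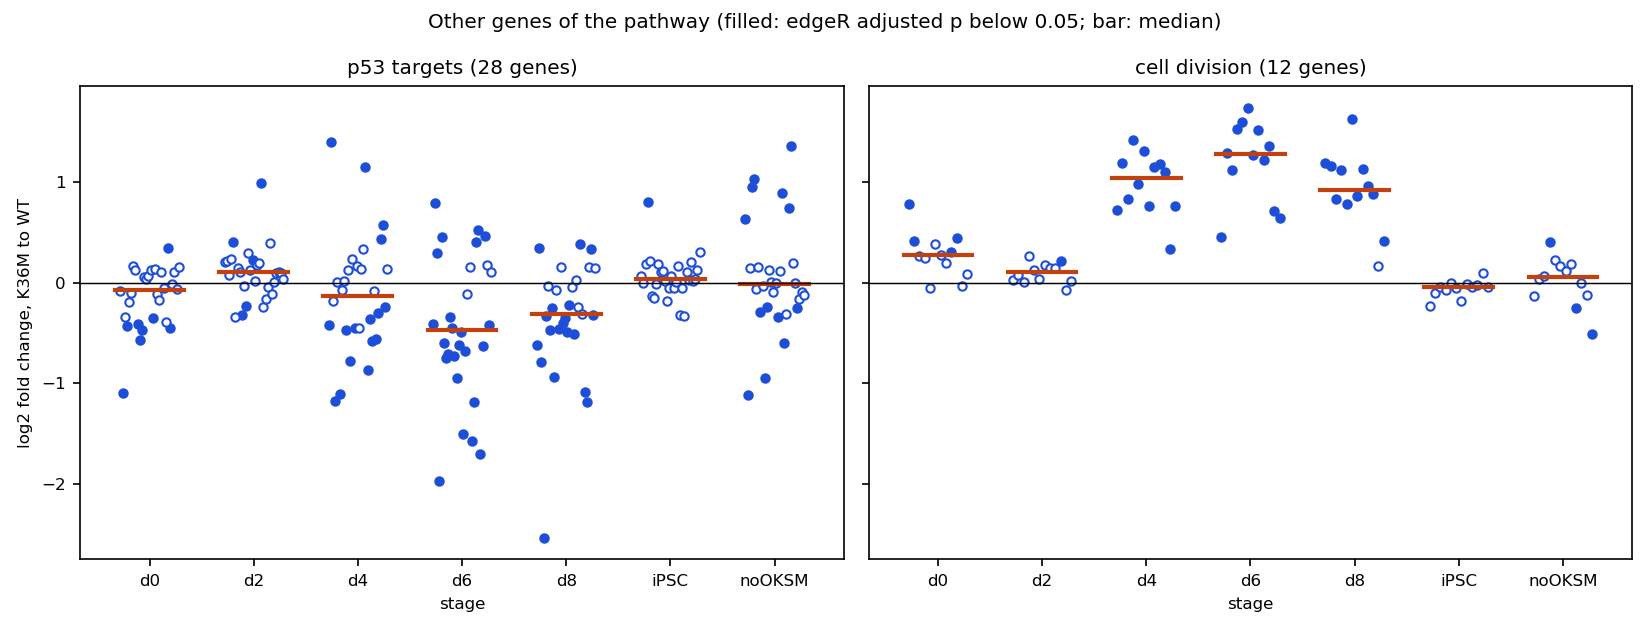
K36M to WT log2 fold change of each gene of 2 lists by stage: 28 p53 targets outside the 8 genes on the left, 12 cell division genes on the right (filled points: edgeR adjusted p below 0.05; bar: median). The cell division medians are 1.04, 1.28 and 0.92 at d4, d6 and d8, and those of the p53 targets -0.13, -0.47 and -0.31.

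Genes on either side of these routes were listed too. Of 14 p53 regulators, 6 were higher and 3 lower in K36M over d2 to d8, among them Trp73, a p53 relative, by 2.90 ± 0.233, and Hipk2, a kinase of p53, by -0.66 ± 0.222 (edgeR adjusted p = 2.83e-07 and 0.0187). Of 12 regulators of the Cdkn2a and Cdkn2b locus, 3 were higher and 7 lower, including the repressor Tbx2, at -3.42 ± 0.433, and Twist1, at -2.85 ± 0.507 (edgeR adjusted p = 1.48e-05 and 0.000263). Tbx2 was lower in K36M already at d0, with 13.2 ± 0.694 CPM in WT and 3.7 ± 0.113 in K36M. Among 14 Cdks, cyclins and Rb family genes, 2 were higher and 5 lower, and the D cyclins that the Ink4 proteins counter were among the latter, Ccnd2 at -2.42 ± 0.406 and Ccnd1 at -1.74 ± 0.381 (edgeR adjusted p = 0.000158 and 0.00132). Of 3 further genes with a Cdk inhibitor name, 2 were higher, Cdkn1c by 1.49 ± 0.308 and Cdkn3 by 0.89 ± 0.265 (edgeR adjusted p = 0.000815 and 0.00941). At d2 itself Cdkn3 was lower in K36M, by -0.51 ± 0.148 (edgeR adjusted p = 0.0163). Of 8 senescence-associated genes tested 1 was higher and 5 lower, with Igfbp3 at -3.97 ± 0.388 and Ccl2 at -2.95 ± 0.551 (edgeR adjusted p = 1.68e-06 and 0.000375). In this comparison 30.2% of all genes were higher and 28.2% lower.

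Cell division genes were higher in K36M, few of them at d0 and most at d4 to d8. In noOKSM 1 was higher and 2 lower (18.2% and 16.7% of all genes), or 3 and 1 with upper quartile scaling. At d0, 4 of 12 were higher and none lower (7.6% and 8.31% of all genes). Mki67 was among them, by 0.78 ± 0.144 (edgeR adjusted p = 0.000486). The 12 summed to 1500 to 1560 CPM in WT and 1920 to 1930 in K36M. All 12 were higher in K36M at d4 and d6 and 11 at d8, beside 27.1%, 37.3% and 31.6% of all genes. Ccnb1, the cyclin of mitosis, was at 92.5 ± 2.85 CPM in WT and 248 ± 15.5 in K36M at d4 (log2 fold change 1.42 ± 0.128, edgeR adjusted p = 2.65e-09). Summed over the 12, WT libraries held 1840 to 1910 CPM at d4 and 1830 to 2080 at d8, and K36M libraries 3590 to 3670 and 3730 to 3810. At d2 the sums were 3130 to 3160 in WT and 3300 to 3350 in K36M, and in iPSCs 4730 to 4750 and 4460 to 4560. In noOKSM they were 1460 in both WT libraries and 1410 to 1450 in K36M. From d2 to d4, Cdkn2a, Cdkn2b and Cdkn1a rose in WT, and all 12 division genes fell there (median -0.70, with 15.2% of all genes lower). In K36M, Cdkn2a and Cdkn2b rose in this step as well, and Cdkn1a fell. Of the 12 division genes 5 rose and 1 fell in K36M (median 0.12, beside 20% and 17.9% of all genes). Division, fibroblast and pluripotent cell markers thus move with the genotype differences of d4 to d8, and their part in the members' values was not tested. In the d0 MEFs, a sum over 8 macrophage markers was 49.3 to 55.8 CPM in WT and 15.1 to 15.4 in K36M, and the part of these markers and of the division genes in the 3 d0 differences was not tested either. Sums over 4 keratinocyte markers were 29.6 to 31.3 CPM in K36M at d4 against 0.637 to 1.24 in WT (Trp63 at 0 in K36M), and over 4 endothelial markers 74.2 to 76 against 87.9 to 101.

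Over the 14 group means, on a log2(CPM + 1) scale and as a description only, Cdkn1a and Ccng1 ran closest together of the members (Pearson r = 0.96), followed by Cdkn2c and Ccng1 (0.84) and the neighbours Cdkn2a and Cdkn2b (0.81), and Cdkn2c ran most opposite to Trp53 (-0.88). Among 10099 genes, the patterns most like each member were Letmd1 (0.991) and L3mbtl3 (0.988) for Ccng1, Letmd1 and Zfp629 (0.973 each) for Cdkn1a, Dek (0.987) and Uba2 (0.984) for Trp53, and Epha7 (0.953) and Pigw (0.946) for Mdm2. For the inhibitors they were Atp6v1e1 (0.970) and Adck2 (0.955) for Cdkn2a, Zdhhc1 (0.981) and Zfp579 (0.980) for Cdkn2b, Fam57a (0.985) and Lyn (0.976) for Cdkn2c, and Dlg3 (0.970) and Flot2 (0.961) for Cdkn1b. All points come from the same 28 libraries, and stage is shared by all genes.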

How the data were processed

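Poly(A) RNA of 28 mouse libraries was measured. The authors deposited 1 table of raw counts per gene, as whole numbers with a different total in each library. The tools named are STAR 2.5.0 (an aligner), HTSeq 0.11.2 (a read counter) and edgeR, with build mm9, per the submitters' processing notes. Strand setting, annotation and treatment of reads with several matches are not stated there. Columns were matched to samples by name (0 left unused), and the iPSC and noOKSM columns by library number, genotype and replicate.

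In R 4.3.3, counts were scaled by TMM and filtered with filterByExpr (minimum count 10, minimum total 15), and edgeR 4.0.16 fitted a robust quasi-likelihood model to all 14 groups (16932 genes, 14 residual degrees of freedom), plus 1 to d2 to d8 with day as a factor (15954 genes, 11 residual degrees of freedom). The tests were two-sided, and Benjamini-Hochberg adjustment took in every tested gene of a contrast, with a threshold of 0.05. CPM use the scaled library size, and SE is the log2 fold change divided by the root of F. The code was tested on simulated counts. Alternatives were other scalings and filters, DESeq2 1.42.0, a replicate block, fits of the compared groups alone and leaving out each library. The 8 genes and all lists were chosen with earlier results of these data known. Genes outside the 8 were named by rule: per list and genotype comparison, up to 2 called genes of at least 5 CPM with the largest change, or the 1 with the highest CPM where none was called, of which the text gives a part, and per member the 2 genes most alike. Listed genes were matched by symbol or RefSeq synonym. Gene positions come from GENCODE on mm9, and start regions from RefSeq on GRCm38.p6.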

Additional observations from a re-analysis of the deposited data

Results flagged for a closer look

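The difference between K36M and WT at a stage was tested against the difference at d0 for each of the 8 genes, and 25 of these differences of differences passed (edgeR, Benjamini-Hochberg adjusted over all genes, log2 scale). All share the 4 d0 libraries, so they are not independent of each other. Groups of 2 are too small to test for a sample far from the others.

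At d2 the shift was -0.83 for Cdkn2c. At d4 the shifts were -1.15 for Cdkn2b, -1.39 for Cdkn2c, -1.03 for Cdkn1a, 0.45 for Trp53 and -0.60 for Ccng1. At d6 they were -0.69 for Cdkn2b, -0.86 for Cdkn2c, -1.48 for Cdkn1a, 0.42 for Trp53, -0.51 for Mdm2 and -1.54 for Ccng1. At d8 they were -0.83 for Cdkn2a, -1.33 for Cdkn2b, -1.83 for Cdkn1a, 0.45 for Cdkn1b and -1.16 for Ccng1. The Cdk inhibitors and Ccng1 that passed thus shifted down in K36M at d4 to d8, except Cdkn1b, and Trp53 shifted up.

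In iPSCs the shifts were 1.34 for Cdkn2a, 1.08 for Cdkn2b and 0.44 for Mdm2. In noOKSM they were 1.07 for Cdkn2a, 0.72 for Cdkn2b, 0.60 for Cdkn2c, 0.49 for Cdkn1a and -0.31 for Mdm2. Cdkn2a and Cdkn2b were lower in K36M at d0 itself, and the upward shifts in these stages are set against that.

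Several of these calls lay near the threshold and were lost when 1 library was left out, most with little change in size. Cdkn2c at d2 did not pass without WT d2 replicate 2 (-0.74) or K36M d2 replicate 1 (-0.71). Trp53 at d4 did not pass without WT d0 replicate 1 (0.38), WT d4 replicate 2 (0.39), K36M d0 replicate 1 (0.41) or K36M d4 replicate 1 (0.39). Trp53 at d6 did not pass without WT d0 replicate 1 (0.34), WT d6 replicate 2 (0.34), K36M d0 replicate 1 (0.37) or K36M d6 replicate 1 (0.19). Ccng1 at d4 did not pass in 7 of 8 fits that left out a d0 or d4 library (-0.63 to -0.57), and passed only without WT d4 replicate 1. Cdkn1b at d8 did not pass without WT d0 replicate 1 (0.38), either WT d8 library (0.42 and 0.47), either K36M d0 library (0.47 and 0.42) or K36M d8 replicate 1 (0.37). Mdm2 in iPSCs did not pass without WT iPSC replicate 1 (0.39), K36M d0 replicate 2 (0.42) or K36M iPSC replicate 2 (0.38). In noOKSM, Cdkn2c (0.48 to 0.61) and Mdm2 (-0.34 to -0.26) each failed in 7 of 8 such fits. Cdkn1a in noOKSM failed without WT d0 replicate 1 or K36M d0 replicate 1, with 0.47 in each fit, and Cdkn2b without K36M noOKSM replicate 2 (0.59).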

How the results depend on the processing

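The number of the 8 genes called between K36M and WT stayed within 1.5 times its value under every alternative run at d0, d2, d4, d6, d8 and over d2 to d8. In iPSCs it was 0, against 1 without a filter, 2 with only the groups compared, and 0 to 1 with 1 library left out. In noOKSM it was 4, and 1 to 3 with 1 library left out. Without a filter, 447 genes were called in iPSCs in place of 211. Of 233 single-gene values, 228 kept direction and call with RLE size factors, 213 with upper quartile scaling, 221 without a filter, 231 with a stricter one and 228 with DESeq2. Of 225, 198 did with only the groups compared, and of 1156, 1027 did with 1 library left out (the library left alone in its group is assumed to vary like the other groups), where 110 lost the call.

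Small values changed sign. Trp53 at d2 was 0.01 with RLE size factors, 0.03 with upper quartile scaling, 0.01 with DESeq2 and -0.07 to 0.01 with 1 library left out. With upper quartile scaling, Ccng1 was 0.01 at d2 and 0.00 in iPSCs, Mdm2 in K36M against d0 was 0.13 at d6 and 0.01 in iPSCs, Ccng1 from d6 to d8 in K36M was -0.04, and the shift of Cdkn1b at d6 was 0.06. The Ccng1 step was -0.01 with only the groups compared. With 1 library left out, values ran from -0.12 to 0.01 for Cdkn1b at d0, -0.44 to 0.12 for Cdkn1b at d6, -0.58 to 0.23 for Cdkn2c in iPSCs (0.05 without WT replicate 1), -0.09 to 0.07 for Ccng1 in iPSCs (0.01 without WT replicate 2) and -0.03 to 0.22 for Cdkn2b in noOKSM. In K36M from d6 to d8 they ran from -0.40 to 0.03 for Trp53 and from -0.35 to 0.52 for Ccng1, and from -0.38 to 0.17 for the shift of Cdkn1b at d6. The cause was not tested.

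Upper quartile scaling moved the median of all genes by 0.13 at d6 between genotypes and by up to 0.25 against d0 (K36M at d6). It moved the share of called genes higher in K36M from 48.5% to 58.9% at d2 and from 52.1% to 62.8% in noOKSM, and for the shifts against d0 from 39.3% to 49.9% and from 51.2% to 61.9%. Replicate numbers showed no pairing common to all stages: same-numbered WT and K36M libraries correlated by -0.25 to 0.42 in their deviations from the group means, and 27 of 91 pairs of groups were over 0.1. Over all pairs of groups the correlation ran from -0.65 to 0.70, a range too wide for this check to settle a pairing at single stages. With a replicate block, 230 of 233 values kept direction and call, and the number of the 8 genes called between genotypes was 3 at d0 and 8 at d4. Depth limits Cdkn2c in iPSCs, with 23 to 39 counts per library.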
